A study of Mus musculus with 27 samples.

Results

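The albino strains of a lung expression series, A/J, BALB/cJ, KK/HlJ and MRL/MpJ, were set against its pigmented strains, 129S1/SvlmJ, C3H/HeJ, C57BL/6J, C57L/J and DBA/2J. The albino side held 12 of the 27 arrays and 4 of the 9 strains, and the pigmented side held 15 arrays and 5 strains. Coat class is not among the labels. It was taken from what is known of these inbred strains, and each strain entered the comparison as 1 mean of its mice. In the series, RNA from the right lung of female mice aged 11 weeks was hybridised to Mouse Gene 1.0 ST arrays, with 3 mice per strain. The labels give each strain a class for spontaneous lung adenomas. A/J is labelled increased in severity and frequency, BALB/cJ increased in severity and decreased in frequency, and KK/HlJ and MRL/MpJ decreased in both. Among the pigmented strains, 129S1/SvlmJ, C3H/HeJ and C57L/J are labelled increased in severity and decreased in frequency, and C57BL/6J and DBA/2J increased in both. Both strains of the decreased severity class were therefore albino, and all 5 pigmented strains belonged to the increased class.

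Albino laboratory mice carry a loss-of-function allele of Tyr, the gene on chromosome 7 that encodes tyrosinase, the enzyme that starts melanin synthesis from tyrosine. The allele was passed on by descent in the stocks from which these strains were bred, so flanking sequence can be shared by albino strains as well. Melanocytes make melanin in melanosomes, organelles related to lysosomes, and lung tissue is not a major site of melanin synthesis. The pigmented strains are not alike in coat genes, since C57L/J and DBA/2J are dilute or leaden and several of the strains differ at agouti and at Tyrp1, the gene of the brown coat.

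Signal is given on the log2 scale throughout, and a difference is the mean of the 4 albino strain means minus the mean of the 5 pigmented strain means. Between mice of the same strain, array correlations were 0.984 to 0.997, beside 0.976 to 0.993 for mice of different strains, and array medians lay between 6.24 and 6.37. Genes of the Y chromosome, absent in these female mice, gave strain means of 2.50 to 5.25, or up to 3.56 without Sry, and served as a measure of background. Lung markers were high: the 15 alveolar type II genes had a median level of 10.94 and the 10 endothelial genes one of 10.51.

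Several arrays stood apart. The arrays labelled C57L/J read 11.17 for H2-Ea, the alpha chain of MHC class II I-E. C57L/J carries the b haplotype, in which this gene is not transcribed. The arrays labelled KK/HlJ read 4.88, close to 4.79 in C57BL/6J. Trim12a read 8.17 in the arrays labelled KK/HlJ, 8.57 in C57BL/6J and 2.87 in the arrays labelled C57L/J. Among 42 genes with a high and a low group of strains, chosen after the data were seen, the arrays labelled KK/HlJ shared the level of C57BL/6J in 26 and those labelled C57L/J in 14, against 20 to 25 in the other strains. Whether these labels were exchanged was not tested. If they were, 6 arrays stand in the wrong coat class in every difference over all 9 strains. The labels were kept, and the main counts and genes are also given without both strains. KK/HlJ replicate 3 and A/J replicate 1 carried liver transcripts, with a mean signal over 20 hepatocyte genes of 6.58 and 5.23, against 4.04 to 4.85 in the other 25 arrays. C3H/HeJ replicate 2 carried muscle and fat transcripts, with a skeletal muscle list mean of 9.26 against 4.88 to 5.29 in the other arrays, and an adipocyte list mean of 9.19 against 6.47 to 8.46.

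Across all genes the coat classes were not separated by any gene at the threshold. Of 20239 named genes, 0 were called by limma at an adjusted p under 0.05 (0%), and the lowest adjusted p was 0.312, for Cyp2c39. At an unadjusted p under 0.05 there were 828 genes (4.09%), of which 474 were higher in albino strains (2.34%) and 354 lower (1.75%). The strain means did not overlap for 260 genes (1.28%), 149 higher (0.736%) and 111 lower (0.548%). Of the arrangements of 4 and 5 strains, a share of 0.0159 parts the classes fully, and the share of genes was not above it. Both this share and the limma fit take the strains as independent. Shared descent among strains was not modelled, so the share is only a rough guide. With a log2 difference of at least 0.5 as well, 15 genes remained (0.0741%): 5 higher (0.0247%) and 10 lower (0.0494%). The median difference over all genes was 0.01. The tilt to the higher side depended on scaling. After quantile normalization the median was 0.004, and 464 of the 900 genes at an unadjusted p under 0.05 were higher (51.6%). In the values as deposited that share was 57.2%. Without C3H/HeJ replicate 2, 0 genes were called, 886 had an unadjusted p under 0.05 and 269 did not overlap. Without the strains labelled KK/HlJ and C57L/J, 0 genes were called and 700 had an unadjusted p under 0.05 (3.46%). The strain means of 867 genes (4.28%) did not overlap between the 3 albino and 4 pigmented strains that were left. Fewer strains are parted more often by arrangement alone, so 867 cannot be set against 260 as a better separation.

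The 5 genes on the higher side were Cyp2c39, Ttr, Atp13a4, Rgn and Uox. Cyp2c39, a cytochrome P450 of the mouse Cyp2c cluster on chromosome 19, had strain means of 3.58 in A/J, 3.33 in BALB/cJ, 3.71 in KK/HlJ and 3.43 in MRL/MpJ, against 2.94 in 129S1/SvlmJ, 2.99 in C3H/HeJ, 2.80 in C57BL/6J, 2.91 in C57L/J and 2.90 in DBA/2J. The difference was 0.61 (SE 0.08, 95% interval 0.43 to 0.78, limma unadjusted p = 1.54e-05, adjusted p = 0.312). BALB/cJ, MRL/MpJ and all pigmented strains lay within the range of the Y-linked genes without Sry, so the gene was not above background there. Single albino arrays ran from 2.94 through a median of 3.33 to 5.08, and pigmented arrays from 2.61 through 2.90 to 3.09, so the arrays overlapped. Members of the Cyp2c cluster are alike in sequence, and probes of this family can pick up more than 1 of them.

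Ttr encodes transthyretin, a carrier of thyroid hormone and retinol-binding protein secreted by the liver. Its strain means were 4.64 in A/J, 4.49 in BALB/cJ, 5.35 in KK/HlJ and 4.55 in MRL/MpJ, against 3.94 to 4.44 in the pigmented strains, with a difference of 0.59 (SE 0.18). Rgn, the liver protein regucalcin, had albino strain means of 4.24 to 5.56 and pigmented ones of at most 4.22, a difference of 0.58 (SE 0.22). Uox, the urate oxidase of liver peroxisomes, had albino strain means of 3.77 to 5.13 and pigmented ones of 3.24 to 3.76, a difference of 0.60 (SE 0.26). Uox in 129S1/SvlmJ at 3.52 and in DBA/2J at 3.24 was not above the Y-linked genes without Sry, so the size of its difference is uncertain. Except in KK/HlJ, all strain means of Ttr and Rgn lay within the background range with Sry. Without KK/HlJ replicate 3 the difference of Uox was 0.29. In each of these 3 genes KK/HlJ was the highest strain, and its replicate 3 alone read 7.51 for Ttr, 8.18 for Rgn and 7.61 for Uox, where the other 2 mice of the strain read 3.95 and 4.58, 4.03 and 4.47, and 3.79 and 3.99. The adjusted p by limma was 0.978 for all 3.

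These 3 genes belong to a list of 20 hepatocyte genes that was drawn up after the liver transcripts had been noticed. Of the 20 genes, 12 were higher in albino strains at an unadjusted p under 0.05 and 0 were lower, beside 2.34% of all genes higher and 1.75% lower. Ttr, Rgn and Uox are among the 12 and were named for their differences in these same arrays. The list followed from liver transcripts in KK/HlJ replicate 3 and A/J replicate 1, both albino. Its counts therefore describe these arrays and are not a test. The differences of 19 of the 20 were positive, with a median of 0.39, beside 11463 of 20239 genes and a median of 0.01 over all genes. Alb, the gene of serum albumin, had strain means of 7.72 in A/J, 6.59 in BALB/cJ, 7.08 in KK/HlJ and 7.14 in MRL/MpJ, against 5.08 in 129S1/SvlmJ, 6.73 in C3H/HeJ, 6.25 in C57BL/6J, 6.82 in C57L/J and 5.19 in DBA/2J, so the classes overlapped. Its difference was 1.12 (SE 0.39, limma adjusted p = 0.978). Other members on the higher side were Hpd, an enzyme of tyrosine breakdown, with a difference of 0.68, Ahsg, the plasma protein fetuin-A, with 0.62, and Tdo2, which opens the ring of tryptophan, with 0.43. The list mean ranged from 4.45 to 5.09 over the albino strains and from 4.14 to 4.49 over the pigmented strains.

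**Figure D1:**
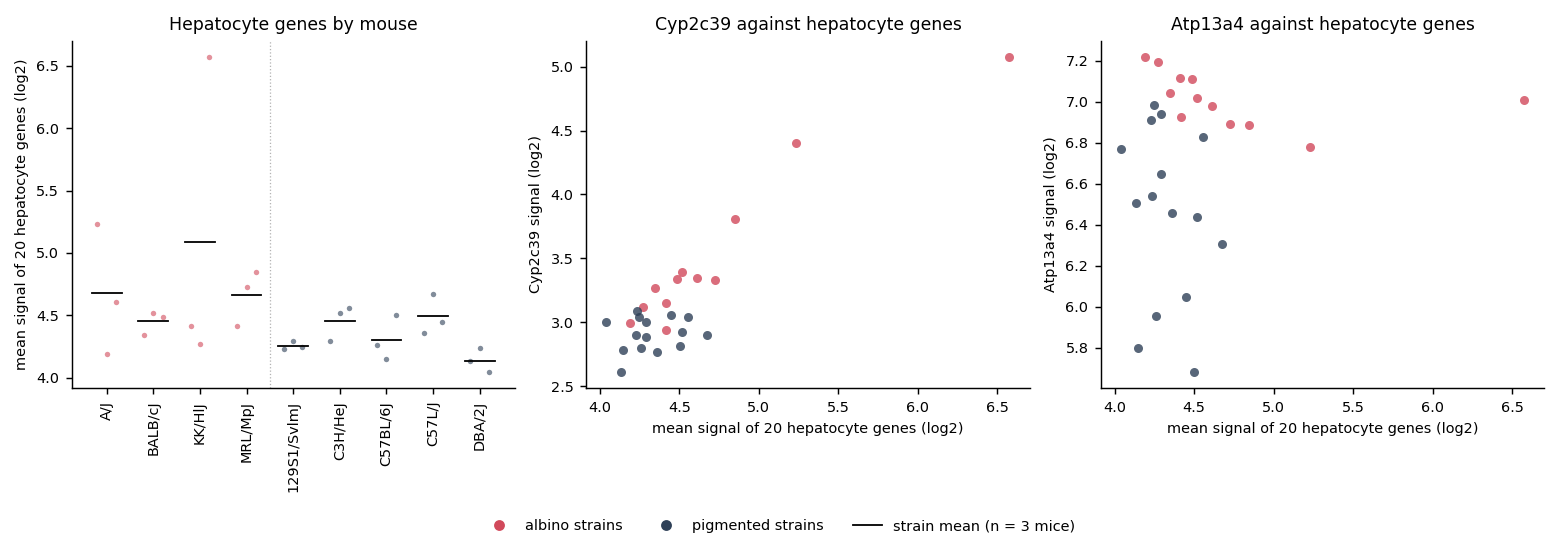
Left, mean log2 signal of 20 hepatocyte genes in each mouse by strain, with the strain mean as a bar; middle and right, log2 signal of Cyp2c39 and of Atp13a4 in each of the 27 arrays against that mean. KK/HlJ replicate 3 at 6.58 and A/J replicate 1 at 5.23 lie farthest right, and they are also the arrays with the highest Cyp2c39, at 5.08 and 4.41, while Atp13a4 reads 7.01 and 6.78 in them.

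MRL/MpJ replicate 3 had the next highest list mean, 4.85, and also the next highest Cyp2c39, 3.81. Among the pigmented arrays the highest list mean was 4.67, in C57L/J replicate 2, where Cyp2c39 read 2.90. Without KK/HlJ replicate 3, A/J replicate 1 and C3H/HeJ replicate 2 together, a choice made after the data were seen, the difference was 0.33 for Cyp2c39 (SE 0.08), 0.25 for Ttr, 0.15 for Rgn and 0.25 for Uox. The strain means of Cyp2c39 still did not overlap, but only just, with 3.03 in KK/HlJ and 3.02 in C3H/HeJ. All its strain means then lay within the range of the Y-linked genes without Sry, A/J at 3.17 included. Those of Ttr, Rgn and Uox overlapped. Without the strains labelled KK/HlJ and C57L/J the differences were 0.54 for Cyp2c39, 0.39 for Ttr, 0.32 for Rgn and 0.33 for Uox, and the strain means of all 4 did not overlap. The number of the 20 hepatocyte genes that were higher at an unadjusted p under 0.05 was 2 without the 3 arrays (median difference 0.13), 6 without KK/HlJ replicate 3 alone (0.18), 5 without A/J replicate 1 alone (0.27), and 12 without the strains labelled KK/HlJ and C57L/J (0.28). In each setting 0 of the 20 were lower. The share of all genes at that p, in either direction, was 4.59%, 3.95%, 4.53% and 3.46% in these settings. In bulk tissue, fewer cells of a type and less RNA per cell cannot be told apart, and the part that liver RNA plays in the difference of Cyp2c39 was not tested.

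Atp13a4, a cation-transporting ATPase, was the member of the higher side that did not follow the liver genes. Its strain means were 6.99 in A/J, 7.06 in BALB/cJ, 7.11 in KK/HlJ and 6.90 in MRL/MpJ, against 6.85 in 129S1/SvlmJ, 6.74 in C3H/HeJ, 5.81 in C57BL/6J, 6.27 in C57L/J and 6.61 in DBA/2J. The difference was 0.56 (SE 0.18, limma unadjusted p = 0.0123, adjusted p = 0.978). The albino strains lay within a narrow band and the pigmented strains were spread below it, with 129S1/SvlmJ next to the albino range and C57BL/6J farthest from it. The difference was 0.57 without the 3 arrays named above and 0.48 without the strains labelled KK/HlJ and C57L/J.

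The lower side was led by Clybl and Plat. Clybl encodes a mitochondrial lyase of the citramalyl-CoA pathway on chromosome 14. Its strain means were 6.39 in A/J, 6.26 in BALB/cJ, 6.08 in KK/HlJ and 6.02 in MRL/MpJ, against 6.68 in 129S1/SvlmJ, 6.91 in C3H/HeJ, 6.70 in C57BL/6J, 6.83 in C57L/J and 6.67 in DBA/2J. The albino arrays ran from 5.73 through a median of 6.20 to 6.50 and the pigmented arrays from 6.53 through 6.68 to 7.40, so that every albino mouse lay below every pigmented mouse. Clybl was the only gene of the 20239 for which this held (0.00494%), and the gap between the highest albino and the lowest pigmented array was narrow beside the spread within strains, whose SD reached 0.43. The difference was -0.57 (SE 0.09, 95% interval -0.76 to -0.38), a 1.49-fold lower signal in albino strains, with a limma unadjusted p of 5.85e-05 and an adjusted p of 0.395. It was -0.55 without the 3 arrays that stood apart and -0.52 without the strains labelled KK/HlJ and C57L/J.

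Plat encodes tissue plasminogen activator, the protease that starts the breakdown of fibrin clots. Its strain means were 7.25 in A/J, 7.53 in BALB/cJ, 7.59 in KK/HlJ and 7.50 in MRL/MpJ, against 8.12 in 129S1/SvlmJ, 8.32 in C3H/HeJ, 7.87 in C57BL/6J, 8.35 in C57L/J and 8.56 in DBA/2J. The mice of a strain lay close together, with SDs of 0.05 to 0.24, and single arrays overlapped by little, from 7.10 to 7.80 in albino mice and from 7.79 to 8.63 in pigmented mice. The difference was -0.77 (SE 0.13, 95% interval -1.06 to -0.49), a 1.71-fold lower signal, with a limma adjusted p of 0.675. With the 27 arrays and the strain as a random block, the adjusted p was 2.26e-04, in a fit that takes 1 within-strain correlation for all genes.

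Gdpd2, an X-linked glycerophosphodiester phosphodiesterase, had the largest difference of the 10 lower genes. It read 6.71 in A/J, 6.59 in BALB/cJ, 5.90 in KK/HlJ and 6.80 in MRL/MpJ, against 7.92 in 129S1/SvlmJ, 6.81 in C3H/HeJ, 7.96 in C57BL/6J, 7.60 in C57L/J and 7.94 in DBA/2J. C3H/HeJ was thus at the level of A/J and MRL/MpJ, and the other 4 pigmented strains stood well above. The difference was -1.15 (SE 0.26, limma unadjusted p = 0.00121, adjusted p = 0.978).

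Dpt encodes dermatopontin, a protein of the extracellular matrix around collagen fibres. Its albino strain means ran from 9.11 to 9.60 and its pigmented ones from 9.64 to 11.12, with C57L/J at 10.91 and DBA/2J at 11.12 and the other 3 pigmented strains at or below 9.82. Rab6b, a small GTPase of Golgi transport, had the same shape with other strains: 5.79 to 6.00 in albino strains, 7.15 in C57BL/6J and 7.07 in C57L/J, and 6.01 to 6.11 in the other 3 pigmented strains. In both genes the size of the difference, -0.88 (SE 0.31) for Dpt and -0.60 (SE 0.25) for Rab6b, came from 2 of the 5 pigmented strains. Adipocyte genes, which also mark tissue around the lung, had list means of 6.65 to 7.53 in albino strains and 6.87 to 7.87 in pigmented strains, and their part in the difference of Dpt was not tested. Without C3H/HeJ replicate 2 the strain means of Rab6b and of Rpl26 overlapped, as did those of Rgn on the higher side.

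The other 5 lower genes had differences of -0.51 to -0.71 and a limma adjusted p of 0.978 each. Rpl26, a protein of the large ribosomal subunit with many processed copies in the genome that its probes may also detect, had albino strain means of 9.49 to 9.67 and pigmented ones of 9.71 to 10.70. Xlr, an X-linked gene of a family of near-identical copies, read 4.18 to 4.68 in albino strains and 4.70 to 5.60 in pigmented strains, with SDs among mice of up to 0.73. Its albino strain means, and those of 129S1/SvlmJ and C57BL/6J, lay within the background range with Sry, which reached 5.25. Because of their copies, Rpl26 and Xlr are uncertain as single genes. Gprc5b, an orphan receptor, Stk33, a protein kinase, and Mill2, a relative of MHC class I, lie on chromosome 7, at 433 and 368 measured genes after Tyr and 749 before it. Their differences were -0.57 (SE 0.14), -0.51 (SE 0.14) and -0.59 (SE 0.21).

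**Figure D2:**
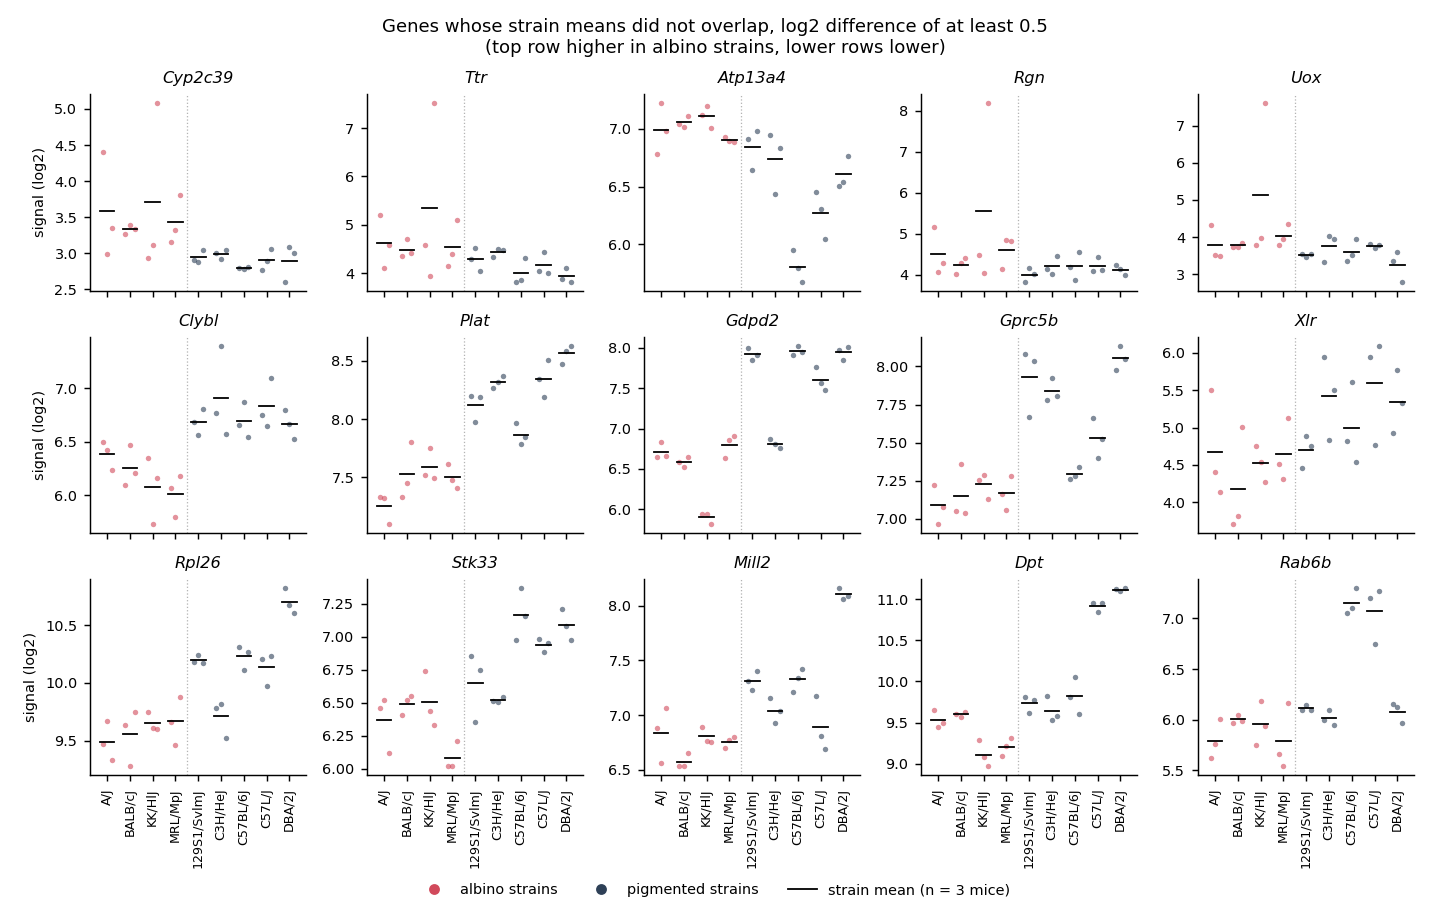
Log2 signal of the 15 genes whose strain means did not overlap and differed by at least 0.5, one panel per gene with its own axis; points are mice, bars are strain means, and the dotted line parts albino strains on the left from pigmented strains on the right. In Ttr, Rgn and Uox the KK/HlJ mean is lifted by 1 mouse, and in Dpt and Rab6b 2 pigmented strains stand far above the other 3.

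Of these 15 genes, 7 of the 10 lower genes and 1 of the 5 higher genes kept both non-overlapping strain means and a difference of at least 0.5 without the 3 arrays that stood apart. Without the strains labelled KK/HlJ and C57L/J those counts were 9 of 10 and 1 of 5. Both the amount of transcript and the match between probe and strain sequence set the signal, and these cannot be told apart in these data.

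Tyr itself read 3.17 in A/J, 3.17 in BALB/cJ, 3.12 in KK/HlJ and 3.33 in MRL/MpJ, against 3.03 in 129S1/SvlmJ, 3.13 in C3H/HeJ, 3.15 in C57BL/6J, 3.10 in C57L/J and 3.28 in DBA/2J. All 9 strain means lay within the range of the Y-linked genes without Sry, so Tyr was not above background in any strain. The difference was 0.06 (SE 0.06, 95% interval -0.08 to 0.20), and a two-sided exact permutation test over the 126 arrangements of the strains gave p = 0.317, where the smallest possible p was 0.0159. The permutation test also takes the strains as independent and does not model shared descent. The albino allele is known as a change within the protein. The level of the transcript therefore does not serve as a check of coat class here.

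The genes next to Tyr did not pass the test. Nox4, an NADPH oxidase and the nearest measured gene before Tyr, read 8.90 to 9.15 in albino strains and 8.82 to 9.41 in pigmented strains, a difference of -0.08 (95% interval -0.32 to 0.16). Grm5, a glutamate receptor gene and the nearest after Tyr, differed by -0.02 (-0.16 to 0.12) at a level within the background range with Sry. Ctsc, the lysosomal protease cathepsin C, was strongly expressed, at 10.89 to 11.28 in albino strains and 11.15 to 11.36 in pigmented strains, and differed by -0.09 (-0.28 to 0.09). Rab38, a small GTPase that delivers tyrosinase to melanosomes and that also acts in the lamellar bodies of alveolar type II cells, is the third gene after Tyr. It read 6.58 in A/J, 7.06 in BALB/cJ, 6.84 in KK/HlJ and 6.68 in MRL/MpJ, against 6.65 to 6.73 in the pigmented strains, so that albino strains lay on both sides of a narrow pigmented range (difference 0.11, 95% interval -0.09 to 0.30). Tmem135 and Fzd4, a Wnt receptor, differed by 0.07 (-0.09 to 0.22) and -0.01 (-0.15 to 0.13), and Folh1, on the far side of Tyr, by 0.05 (-0.05 to 0.16). Of the 21 genes from 10 before to 10 after Tyr, 0 had an unadjusted p under 0.05 by limma.

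In the wider window of 50 measured genes on each side, 0 of 101 genes were called at an adjusted p under 0.05. At an unadjusted p under 0.05 there were 10 (9.90% of the window, beside 4.09% of all genes), 6 of them higher and 4 lower, and the strain means of 1 gene, Usp35, did not overlap (0.990%, beside 1.28%). The median difference in the window was 0.01, beside 0.01 over all genes. When chromosome 7 was divided into stretches of 101 genes in order, the stretch centred on Tyr had 10 genes at this p, and the 16 other full stretches had 2 to 8. Without the strains labelled KK/HlJ and C57L/J the count was 5, beside 3.46% of all genes in that setting, and 5 genes of the window did not overlap, beside 4.28% of all genes. Without C3H/HeJ replicate 2 it was 9, beside 4.38% of all genes, with 3 that did not overlap, beside 1.33% of all genes. In the narrower window of 25 genes on each side, 2 of 51 genes (3.92%) had an unadjusted p under 0.05.

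**Figure D3:**
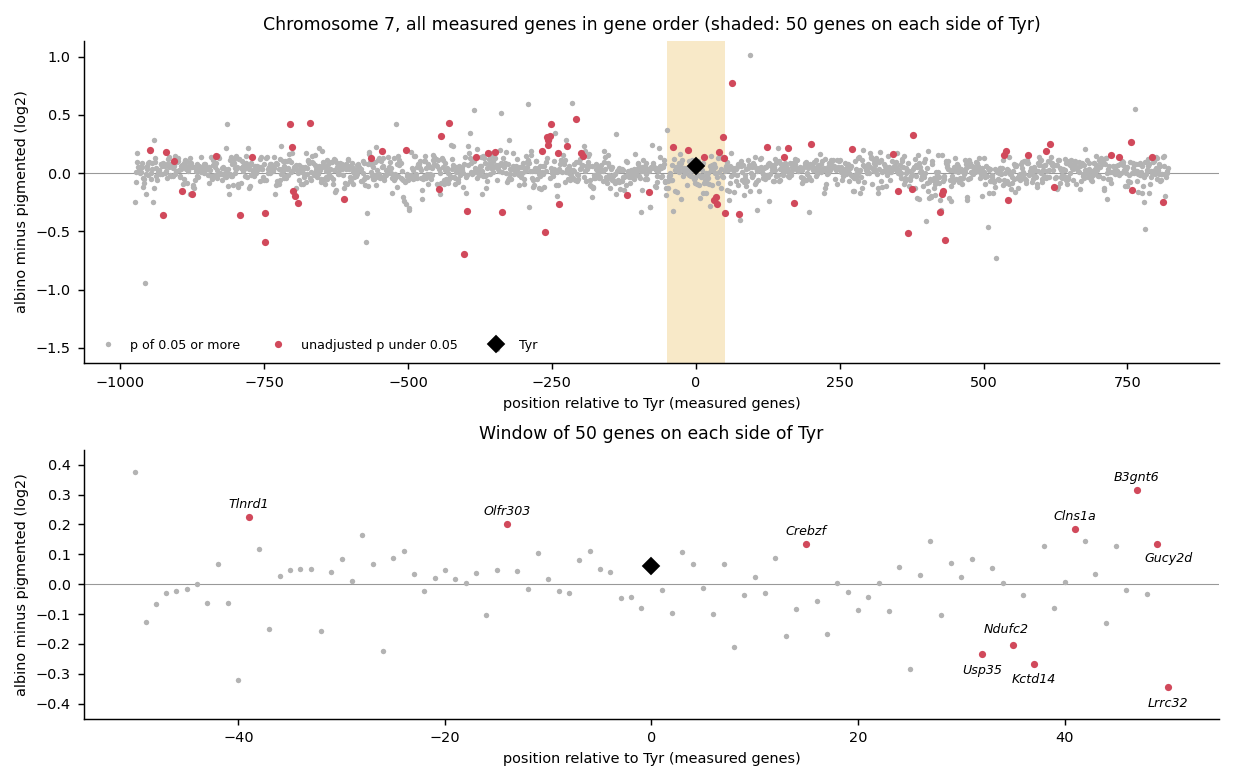
Difference in log2 signal, albino minus pigmented, for the 1795 measured genes of chromosome 7 in gene order (top) and for the 101 genes around Tyr (bottom); the horizontal axis counts measured genes from Tyr. Red points have an unadjusted p under 0.05, and within the window 7 of the 10 lie between 31 and 50 genes after Tyr.

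Of the 10 genes, 7 lay between 31 and 50 genes after Tyr, among 20 genes there, a stretch marked out after the values were seen. On the lower side were Usp35, a deubiquitinase, Ndufc2, a subunit of respiratory complex I, Kctd14, and Lrrc32, which holds latent TGF-beta at the surface of regulatory T cells and platelets. Usp35 read 5.63 in A/J, 5.60 in BALB/cJ, 5.76 in KK/HlJ and 5.57 in MRL/MpJ, against 5.80 in 129S1/SvlmJ, 5.90 in C3H/HeJ, 5.81 in C57BL/6J, 5.90 in C57L/J and 5.95 in DBA/2J. Its difference was -0.23 (SE 0.06, limma unadjusted p = 0.00192, adjusted p = 0.978), and its strain means did not overlap also without the 3 arrays that stood apart (-0.25) and without the strains labelled KK/HlJ and C57L/J (-0.27). Single mice overlapped, from 5.39 to 5.94 in albino strains and from 5.61 to 6.18 in pigmented strains.

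Lrrc32 had the largest difference of the 10, -0.35 (SE 0.11), with 7.03 in A/J, 7.15 in BALB/cJ, 7.14 in KK/HlJ and 7.53 in MRL/MpJ, against 7.36 to 7.74 in the pigmented strains. MRL/MpJ lay inside the pigmented range and the other 3 albino strains below it. Ndufc2 differed by -0.20 (SE 0.09), with MRL/MpJ lowest at 9.45 and the other albino strains at 9.67 to 9.79, against 9.70 to 10.04 in pigmented strains. Kctd14 differed by -0.27 (SE 0.10) and was lowest in KK/HlJ at 4.98. Without the strains labelled KK/HlJ and C57L/J the difference of Kctd14 was -0.11.

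On the higher side were Tlnrd1, Olfr303, Crebzf, Clns1a, B3gnt6 and Gucy2d, with differences of 0.13 to 0.31. Clns1a, a factor of spliceosomal particle assembly, read 7.95 to 8.08 in albino strains and 7.71 to 7.98 in pigmented strains, with 129S1/SvlmJ at 7.98 alone inside the albino range. Crebzf, a bZIP transcription factor, read 8.27 to 8.42 in albino strains and 8.18 to 8.29 in pigmented strains. B3gnt6, which makes the core 3 structure of mucin O-glycans, was low, at 4.30 to 4.83 in albino strains and 4.08 to 4.33 in pigmented strains, and its difference of 0.31 (SE 0.10) was led by MRL/MpJ. Gucy2d read 5.10 to 5.21 in albino strains and 4.94 to 5.13 in pigmented strains. All strain means of Gucy2d and B3gnt6 lay within the background range with Sry. Olfr303, an olfactory receptor gene with close relatives, was at background, at 3.18 to 3.58 in albino strains and 3.02 to 3.31 in pigmented strains. The window also holds 28 other olfactory or vomeronasal receptor genes, and these 29 genes together had a median level of 2.83, so a large share of the window could not report a difference in expression.

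**Figure D4:**
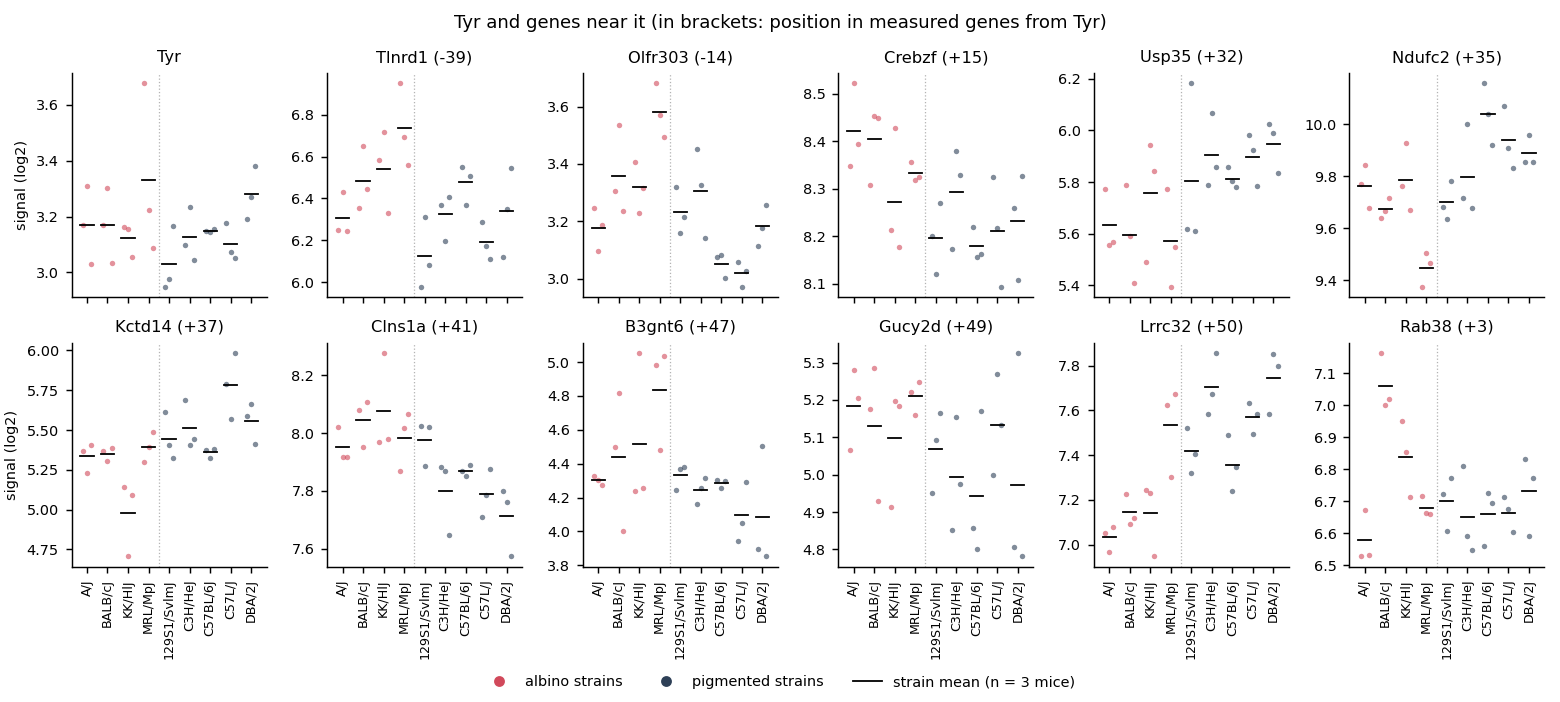
Log2 signal by strain for Tyr, for the 10 genes of the window with an unadjusted p under 0.05 in order along the chromosome, and for Rab38; points are mice, bars are strain means, albino strains stand left of the dotted line, and each panel has its own axis. Tyr lies near 3.2 in both classes, and in Usp35 alone of these 12 panels do the bars of the classes not overlap.

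The pigment genes were read from 4 lists. Of 16 genes of melanin synthesis and the melanosome, 1 was higher and 1 lower at an unadjusted p under 0.05, and the median difference was 0.08. Mlana, a melanosomal protein, read 5.94 to 6.01 in albino strains and 5.58 to 6.00 in pigmented strains, with C3H/HeJ at 6.00 inside the albino range (difference 0.21, SE 0.08, limma adjusted p = 0.978). Rab32, which works beside Rab38 in the delivery of melanosomal enzymes, read 6.26 to 6.63 in albino strains and 6.47 to 6.82 in pigmented strains (difference -0.22, SE 0.09, adjusted p = 0.978). The enzymes that follow tyrosinase were low in both classes: Tyrp1 averaged 4.03 ± 0.10 in albino strains (SD, n = 4) and 3.98 ± 0.11 in pigmented strains (SD, n = 5), and Dct averaged 4.45 ± 0.10 in albino strains and 4.37 ± 0.12 in pigmented strains. Gpnmb, a melanosome and macrophage protein with a stop mutation in DBA/2J, spread widely in each class, with 6.32 in BALB/cJ and 7.81 to 8.28 in the other albino strains, and with 4.83 in DBA/2J and 7.01 to 8.30 in the other pigmented strains.

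Of 12 regulators and signals of melanocytes, 2 were higher at an unadjusted p under 0.05 and 0 lower, with a median difference of 0.07. They were a receptor and its ligand. Kit, the receptor tyrosine kinase of melanoblasts and mast cells, read 9.80, 10.19, 10.02 and 9.93 in A/J, BALB/cJ, KK/HlJ and MRL/MpJ, against 9.61, 9.96, 9.76, 9.48 and 9.77 in 129S1/SvlmJ, C3H/HeJ, C57BL/6J, C57L/J and DBA/2J. Kitl, its ligand, read 9.72, 9.62, 9.49 and 9.69 in A/J, BALB/cJ, KK/HlJ and MRL/MpJ, against 9.38, 9.44, 9.41, 9.44 and 9.53 in 129S1/SvlmJ, C3H/HeJ, C57BL/6J, C57L/J and DBA/2J. The differences were 0.26 (SE 0.10, limma adjusted p = 0.978) and 0.19 (SE 0.06, adjusted p = 0.978), and both pairs of ranges overlapped. The mast cell list, which holds Kit, had a median level of 4.56 and a median difference of 0.03. Which cells of the lung gave the Kit signal was not tested. Mitf, the transcription factor of melanocytes, averaged 6.10 in albino strains and 6.12 in pigmented strains, with 7.06 in the arrays labelled C57L/J, the highest of the 9. Ednrb, an endothelin receptor of melanoblasts and endothelium, was lowest in the same arrays at 7.67 against 8.87 to 9.13 elsewhere.

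None of the 7 genes of melanosome transport and none of the 17 measured genes of lysosome-related organelle biogenesis had an unadjusted p under 0.05 by limma, and their median differences were -0.07 and -0.01. Myo5a, the myosin that carries melanosomes and is mutated in dilute mice, averaged 7.45 in albino strains and 7.62 in pigmented strains and was highest in DBA/2J at 8.22. Mlph, the melanophilin gene mutated in leaden mice, averaged 6.80 in albino strains and 6.85 in pigmented strains. Together the 4 lists held 52 entries on the array, 4 of which had an unadjusted p under 0.05 (7.69%, beside 4.09% of all genes).

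**Figure D5:**
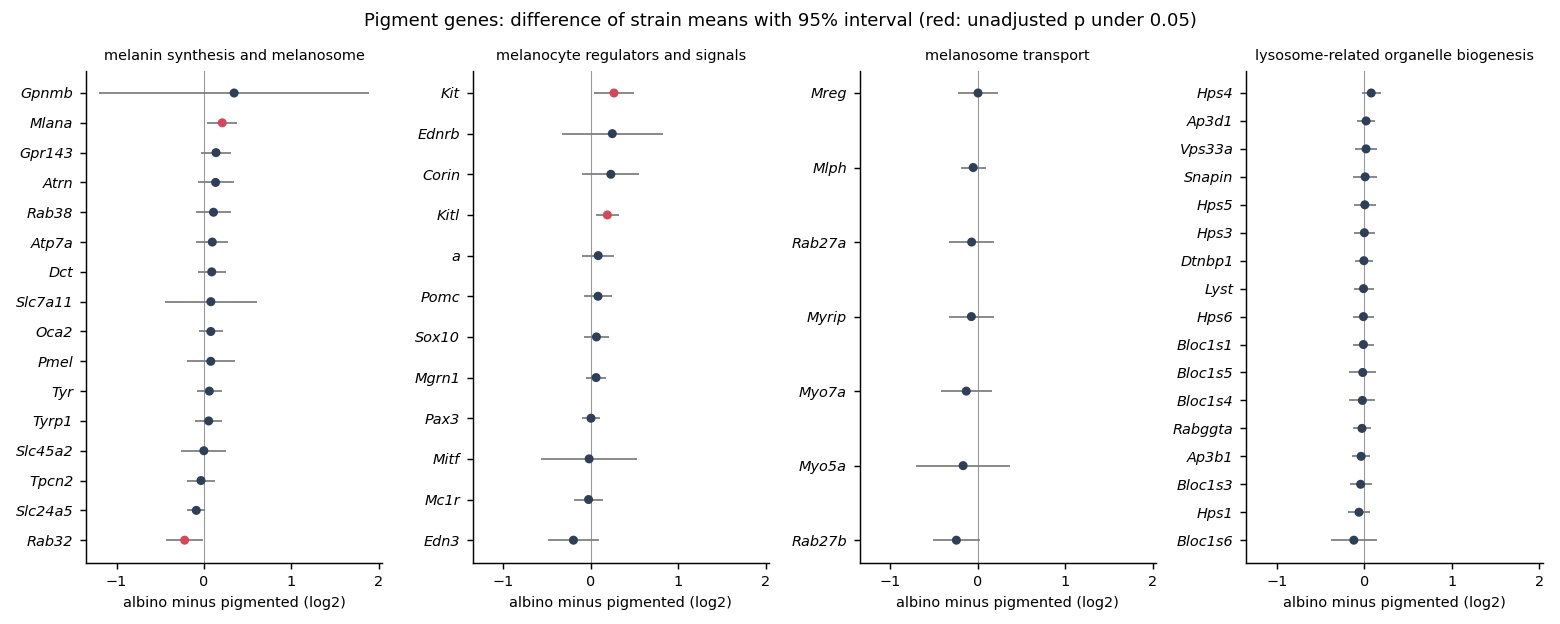
Difference in log2 signal, albino minus pigmented, with its 95% interval for every measured gene of the 4 pigment lists, one panel per list. Red marks the 4 genes with an unadjusted p under 0.05, Mlana, Rab32, Kit and Kitl; the widest interval is that of Gpnmb.

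The cell type lists gave few genes, and their counts stand beside 4.09% of all genes at an unadjusted p under 0.05. Of the 15 alveolar type II genes and of the 12 measured alveolar macrophage genes, 0 had an unadjusted p under 0.05 by limma, with median differences of 0.00 and -0.11. Of 10 alveolar type I genes, Rtkn2 was lower at that p, with albino strain means of 8.55 to 8.91 and pigmented ones of 8.87 to 9.54 (difference -0.54, SE 0.15). All 10 endothelial genes had positive differences, as had 11463 of the 20239 genes, and their median was 0.10. Kdr, the main receptor for VEGF, had strain means of 10.78 to 10.88 in albino strains and 10.52 to 10.76 in pigmented strains, which did not overlap (difference 0.17, SE 0.06). Ighm, the heavy chain of IgM, differed by -0.46 (SE 0.16) as 1 of 13 measured B cell genes, and Trac, the constant region of the T cell receptor alpha chain, by -0.47 (SE 0.19) as 1 of 11 measured T cell genes. Ifit3, 1 of 21 measured interferon-stimulated genes, differed by -0.72 (SE 0.24) with 6.21, 6.80, 7.47 and 6.16 in A/J, BALB/cJ, KK/HlJ and MRL/MpJ, against 7.24 to 7.53 in the pigmented strains. The limma adjusted p of each of these genes was 0.978. The adipocyte list had a median difference of -0.39 with 0 of 10 genes at an unadjusted p under 0.05. The skeletal muscle list had one of -0.22 with 0 of 12. The high values of C3H/HeJ replicate 2 given above enter both. In the cardiac muscle list 11 of 12 differences were positive (median 0.20), and Myl7 was higher at that p (0.42, SE 0.19). So were Gstm2, 1 of 9 measured club cell genes (0.23), and Prdm1, 1 of 11 plasma cell genes (0.26). Of the 11 dendritic cell genes, 10 had negative differences (median -0.11) and 0 reached that p.

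The coat classes also differ in adenoma class, and these cannot be told apart fully with 9 strains. With the 7 strains of increased severity alone, A/J and BALB/cJ against the 5 pigmented strains, 1 gene was called by limma, Col4a6, a type IV collagen chain of basement membranes on the X chromosome (difference -1.03, adjusted p = 0.00297). Over all 9 strains its difference was -0.46 (SE 0.24) and its albino and pigmented strain means overlapped, at 5.44 ± 0.66 (SD, n = 4) and 5.90 ± 0.05 (SD, n = 5). In those 7 strains, 5 of the 101 genes of the window around Tyr had an unadjusted p under 0.05, beside 3.33% of all genes, Clybl differed by -0.43 and Plat by -0.85.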

How the data were processed

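Per the labels' protocols, total RNA of right lung was purified on columns, checked for integrity and hybridised as biotin-labelled DNA to Mouse Gene 1.0 ST arrays. The authors deposited 1 table of log2 signal per probe set and array, made with the affy package per the submitters' processing notes; the normalization and the software version are not given in the sources used here. Values ran from 1.78 to 13.35 and were used as deposited. Of 21225 probe sets, 20239 had 1 gene symbol and were tested, and 986 unnamed ones were left out. Gene order came from the RefSeq annotation of GRCm38.p6, matched by Entrez ID for all 20239 genes; the files name no genome build, so no coordinates are given.

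The 3 arrays of each strain were averaged, and lmFit and eBayes of limma 3.58.1 (R 4.3.3) compared 4 albino with 5 pigmented strain means. P-values were adjusted by Benjamini-Hochberg over all named genes, with calls at an adjusted p under 0.05. Mice of a strain share a genotype, so they are not replicates of a coat class, and the number of strains limits the precision. Strains were taken as independent, and shared descent among them was not modelled. The fit was also run on simulated strain means with independent normal errors. These hold neither related strains nor arrays that stand apart, so the run does not cover such features of the data.

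Named genes were those with the smallest p among genes whose strain means did not overlap and differed by at least 0.5 (up to 15 per direction, which 5 and 10 met), Tyr, the genes of the window of 50 measured genes on each side with an unadjusted p under 0.05 or without overlap, members of the pigment lists, and up to 4 members of each other list. The classes, lists and tests were chosen with earlier results of these data known. The hepatocyte list, the neighbours of Tyr, the genes called under alternatives only, Ntn5, Rasip1 and the strain label checks were chosen after seeing the data. Alternatives covered scaling, dim and unnamed probe sets, the prior, medians over mice, a minimum difference, window size, the unit of replication, and leaving out arrays and strains.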

Additional observations from a re-analysis of the deposited data

Results flagged for a closer look

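In 2 of 60 groups of strain means tested, 1 strain lay apart from the rest of its class by the Dixon criterion, which chance meets in about 1 of 20 groups, and both cases were KK/HlJ among the 4 albino strains. Ttr read 5.35 in KK/HlJ, with 4.64 in A/J as the nearest strain. Kctd14 read 4.98 in KK/HlJ, with 5.34 in A/J as the nearest. The Ttr value rests on KK/HlJ replicate 3, the array with the highest hepatocyte genes, while all 3 KK/HlJ mice were low for Kctd14.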

How the results depend on the processing

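With strain means as units, 0 genes were called under scaling, filtering, prior and median alternatives, without each single array, and without the 3 arrays that stood apart, a setting chosen after seeing the data. The exceptions were 1 gene with the increased severity strains alone (Col4a6) and, over the 9 settings without 1 strain each, 0 to 1 (Bcat2, without C57BL/6J). Taking the 27 arrays with the strain as a random block gave 11 calls, and with the replicate block as well 10; mice within strains correlated at 0.27 in that fit. Error from mice within strains alone, which ignores the spread between strains, gave 1357 calls and 3970 genes at an unadjusted p under 0.05, with 14 and 28 near Tyr. Genes at an unadjusted p under 0.05 numbered 734 to 961 without single arrays, 638 to 1152 without single strains, and 57 with a difference of at least 0.5. Near Tyr the count was 6 to 12 without single arrays, lowest without KK/HlJ replicate 2, and 5 to 12 without single strains, lowest without BALB/cJ. It was 5 with medians of the 3 arrays, 5 without the strains labelled KK/HlJ and C57L/J, 5 with the increased severity strains, and 2 in the window of 25 genes on each side. The cause of these changes was not tested, except that the last has fewer genes. Replicate numbers did not pair the mice: over 36 pairs of strains, deviations of same-numbered mice correlated at -0.17 to 0.19, with 3 pairs over 0.1. For the 26 genes named by difference or position, 1215 of 1215 recomputed differences kept their direction. Apart from Tyr these genes were chosen by their differences in the same arrays, most of which every setting reuses. The kept direction is therefore no independent support.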

Other observations

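Of the 11 genes called with the strain as a random block, 4 were among the lower genes described above: Plat (adjusted p = 2.26e-04), Gdpd2 (5.38e-04), Gprc5b (0.0167) and Rpl26 (0.0307). That fit takes 1 within-strain correlation, 0.27, for all genes, and a gene whose mice are more alike gets too small a p. In Gdpd2 the SDs among mice were 0.06 to 0.14, while strain means ran from 5.90 to 7.96. None of the 4 was called from strain means. The other 7 were looked at after the calls of the random block fit were seen. Their adjusted p from strain means was 0.395 or more for each. Zfp93, a zinc finger gene 671 measured genes before Tyr, averaged 6.95 ± 0.07 in albino strains and 6.53 ± 0.10 in pigmented strains (SD, n = 4 and n = 5; difference 0.43). Arl15, a small GTPase, averaged 9.42 ± 0.11 in albino strains and 9.00 ± 0.13 in pigmented strains, and Mb21d2 averaged 7.07 ± 0.05 in albino strains and 6.70 ± 0.12 in pigmented strains; the strain means of these 3 genes did not overlap. Clu, the secreted chaperone clusterin, averaged 9.39 ± 0.11 in albino strains and 9.72 ± 0.14 in pigmented strains, again without overlap. Mmp3, a matrix metalloproteinase, averaged 5.95 ± 0.69 in albino strains and 6.92 ± 0.35 in pigmented strains, Sae1, a subunit of the SUMO-activating enzyme, 8.54 ± 0.11 in albino strains and 8.90 ± 0.15 in pigmented strains, and Bpifb5, of the BPI family of airway proteins, 7.13 ± 0.40 in albino strains and 6.39 ± 0.33 in pigmented strains; these 3 overlapped.

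On chromosome 7, 3 genes that lay close together were named, a choice made after the data were seen. Their stretch of 101 genes had 8 genes at an unadjusted p under 0.05 by limma (7.92%, beside 4.09% of all genes). In 3 genes of the stretch the strain means did not overlap (2.97%, beside 1.28%). Over the full stretches other than the one centred on Tyr, these counts ran from 2 to 8 and from 0 to 4. Ntn5, 254 genes before Tyr, averaged 5.85 ± 0.09 in albino strains and 5.53 ± 0.09 in pigmented strains. Rasip1, an endothelial regulator of small GTPases 258 genes before Tyr, averaged 9.17 ± 0.12 in albino strains and 8.86 ± 0.11 in pigmented strains, and the strain means of both did not overlap. Bcat2, the mitochondrial transaminase of branched-chain amino acids 262 genes before Tyr, averaged 7.20 ± 0.07 in albino strains and 7.70 ± 0.36 in pigmented strains, which overlapped. The limma adjusted p over all genes was 0.978 for each of the 3.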
